A study of Mus musculus with 14 samples.

Results

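The Slit, Robo and netrin guidance genes described here are 10 protein-coding genes: the ligand genes Slit1, Slit2, Slit3 and Ntn1, and the receptor genes Robo1, Robo2, Robo4, Dcc, Unc5c and Unc5d. They are 10 of 21887 annotated protein-coding genes, and 127 of 39832 listed peaks fell in them. A peak belonged to a gene if its centre fell inside the gene's annotated span on GRCm38 or no more than 5 kb outside. The genes were chosen by family, and from results of these same lists, in which Robo1 and Dcc were already known to hold many peaks. Their peak numbers, positions and recurrence are therefore given as a description, without a test.

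The series located BMI1 and H2AK119ub on chromatin by ChIP-seq, the sequencing of immunoprecipitated DNA. The cells were Sca1+CD45- cells of the heart, separated with magnetic beads, from C57BL/6 mice aged 6 to 8 weeks. A culture step at 3% O2 is also described, but not whether it preceded ChIP. Damage mice had received 1 intraperitoneal dose of 20 mg/kg Paraquat, a redox-cycling herbicide, in PBS, and Homeostasis mice PBS alone. There were 4 groups of 3 libraries, Damage BMI1, Homeostasis BMI1, Damage H2AK119ub and Homeostasis H2AK119ub, each with its own deposited peak list. BMI1 belongs to a Polycomb complex that represses genes, and H2AK119ub, a ubiquitin added to histone H2A, is the mark such complexes deposit. Damage lists held 19 to 47 BMI1 peaks and 25 to 68 H2AK119ub peaks. Homeostasis lists held 4072 to 7513 BMI1 peaks and 2000 to 13487 H2AK119ub peaks. Read depth is unknown, since the lists give positions and no counts. RNA was not measured, so the identity of the sorted cells could not be checked by markers. Nothing in the labels says whether libraries of 1 group came from separate mice, and the spread between them may be technical.

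Slit proteins are secreted ligands, and Robo receptors on the cell surface bind them. The pathway is best known for repelling growing axons at the midline of the nervous system. Netrin-1, the product of Ntn1, attracts axons through Dcc and repels them through receptors of the Unc5 family. Outside the nervous system the same molecules act in cell migration and vessel growth, and mice that lack Robo1 or Slit3 have defects in heart development. Robo4 is a receptor of endothelial cells.

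Robo1 and Dcc were the most densely listed of the 10 genes. Robo1 (chromosome 16, 72027518 to 73047491) had 0 peaks in each of the 6 Damage lists. Its Homeostasis BMI1 lists held 4, 8 and 7 peaks and its Homeostasis H2AK119ub lists 2, 9 and 7. Every Homeostasis list thus had at least 1 Robo1 peak, the lowest being the shortest list, H2AK119ub replicate 1. The number expected was taken from the gene's window length and the list's peak density on the same chromosome. For Robo1 the peaks found were 2.94 ± 1.07 times the expected number for BMI1 (SD, n = 3) and 2.49 ± 0.725 times for H2AK119ub (n = 3). Of 215 protein-coding genes between 0.5 and 2 times as long as Robo1, 8 had a higher ratio over the 6 Homeostasis lists. Robo1 ranked 8 of 21887 genes by its 37 peaks in these lists.

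Dcc encodes the netrin receptor that carries the attractive response (chromosome 18, 71253613 to 72351228). It also had 0 peaks in each Damage list. Homeostasis BMI1 lists held 4, 8 and 4 Dcc peaks, and Homeostasis H2AK119ub lists 2, 12 and 5. The high value of 12 belongs to the longest list, H2AK119ub replicate 2. Relative to expectation Dcc reached 2.11 ± 0.320 for BMI1 and 1.95 ± 0.430 for H2AK119ub (SD, n = 3 each). Among 188 genes of like length, 23 had a higher ratio, and Dcc ranked 11 of 21887 genes with 35 peaks.

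Robo2, the paralogue next to Robo1 (chromosome 16, 73891976 to 75447443), was the longest of the 10 genes and had fewer peaks than its length predicts. With 0 peaks in every Damage list, it had 1, 4 and 1 peaks in the Homeostasis BMI1 lists and 0, 7 and 2 in the Homeostasis H2AK119ub lists. The ratios to expectation were 0.536 ± 0.307 for BMI1 and 0.457 ± 0.455 for H2AK119ub (SD, n = 3 each). All 6 Homeostasis lists lay below the expected number for Robo2 and above it for Robo1, as the plot of ratios by gene shows. Over the 6 lists, 84 of 100 genes of like length had a higher ratio than Robo2. Robo4 (chromosome 9, 37401902 to 37414023), at 12.1 kb by far the shortest gene of the group, had 0 peaks in all 12 lists. Only 0.354 peaks were expected there over the 6 Homeostasis lists, so the absence of a peak at Robo4 is uninformative at these list sizes.

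**Figure D1:**
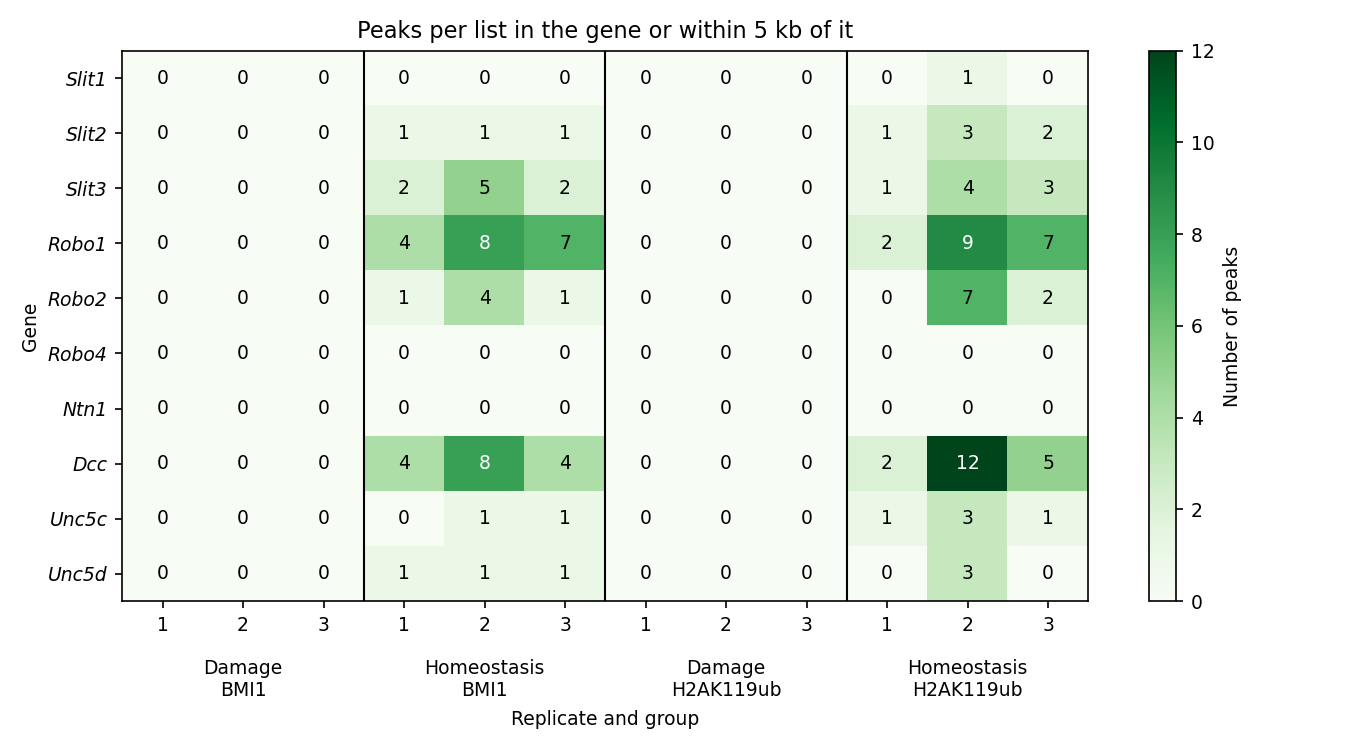
Number of peaks in each of the 10 genes (rows) for each of the 12 lists (columns, replicates 1 to 3 of each group), with Damage left of Homeostasis for each antibody. Damage columns are 0 throughout, and the highest values are those of Dcc and Robo1 in Homeostasis lists, up to 12 and 9.

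**Figure D2:**
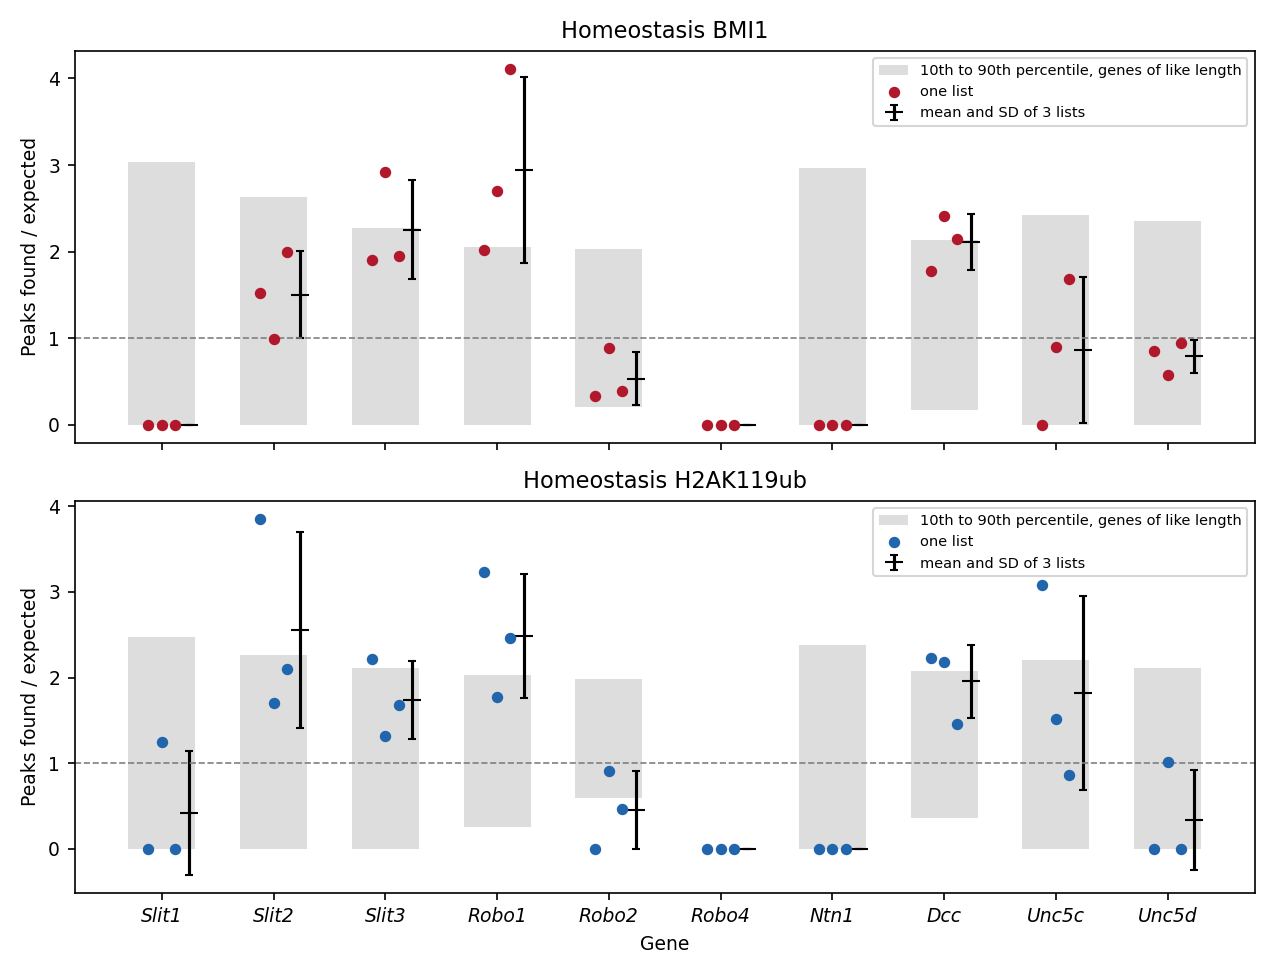
Peaks found divided by peaks expected for each gene in the Homeostasis lists of BMI1 (top) and H2AK119ub (bottom). Points are single lists, black marks are the mean and SD of 3 lists, grey bars span the 10th to 90th percentile of genes 0.5 to 2 times as long, and the dashed line marks 1. Robo1 lies above the line and Robo2 below it in every list.

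Among the ligand genes, Slit3 held most peaks (chromosome 11, 35121456 to 35708507). It had 0 in each Damage list, 2, 5 and 2 in the Homeostasis BMI1 lists, and 1, 4 and 3 in the Homeostasis H2AK119ub lists. This was 2.25 ± 0.575 times expectation for BMI1 and 1.74 ± 0.454 times for H2AK119ub (SD, n = 3 each), and 88 of 545 genes of like length had a higher ratio over the 6 lists. Slit2 (chromosome 5, 47981291 to 48307735) had 0 peaks in each Damage list, 1 in each Homeostasis BMI1 list, and 1, 3 and 2 in the Homeostasis H2AK119ub lists. Slit2 thus had a peak in all 6 Homeostasis lists, but its 9 peaks stood beside 5.14 expected, and 230 of 1152 genes of like length had a higher ratio. Slit1 (chromosome 19, 41597824 to 41747275) had a single peak in all 12 lists, in Homeostasis H2AK119ub replicate 2, where 2.29 were expected over the 6 Homeostasis lists.

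Ntn1, which encodes netrin-1 (chromosome 11, 68209364 to 68386826), had 0 peaks in all 12 lists. From the density of its chromosome, 2.85 peaks were expected over the 6 Homeostasis lists. From the 2 Mb on each side of the gene, which were rich in peaks, 5.91 were expected. The Homeostasis BMI1 lists held 26 peaks in the 2 Mb before Ntn1 and 29 in the 2 Mb after it, and the Homeostasis H2AK119ub lists 34 and 37. Of 2371 genes of like length, 44.2% also had no Homeostasis peak. The netrin receptor genes of the Unc5 family had few peaks. Unc5c (chromosome 3, 141465564 to 141834924) had 0 peaks in each Damage list, 0, 1 and 1 in the Homeostasis BMI1 lists and 1, 3 and 1 in the Homeostasis H2AK119ub lists. That is 7 peaks against 5.89 expected. Unc5d (chromosome 8, 28646717 to 29219671) had 0 peaks in each Damage list, 1 in each Homeostasis BMI1 list and 0, 3 and 0 in the Homeostasis H2AK119ub lists, or 6 peaks against 9.20 expected.

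Summed over the 10 genes, Homeostasis BMI1 lists held 19.3 ± 7.77 peaks where 12.9 were expected, and Homeostasis H2AK119ub lists 23.0 ± 17.7 where 17.2 were expected (SD, n = 3 each). The ratio averaged 1.48 ± 0.310 for BMI1 and 1.40 ± 0.235 for H2AK119ub, against 0.870 ± 0.00876 and 0.873 ± 0.00858 over all other protein-coding genes. Without Robo1 and Dcc, a removal chosen after the data were seen, the remaining 8 genes gave 0.903 ± 0.198 for BMI1 and 0.963 ± 0.206 for H2AK119ub. These 8 were mixed. Over the 6 Homeostasis lists Slit3 (17 peaks, 9.07 expected), Slit2 (9, 5.14 expected) and Unc5c (7, 5.89 expected) lay above expectation. Robo2 (15, 23.1 expected), Unc5d, Slit1, Ntn1 and Robo4 lay below it. The median ratio over the 10 genes was 0.790 for BMI1 and 1.10 for H2AK119ub, with 0 as the median over all protein-coding genes for both antibodies. Most genes are short: the median length was 471 kb for the 10 genes and 17.2 kb for all. When the density of the 2 Mb on each side replaced that of the chromosome, the ratio was 1.23 ± 0.152 for BMI1 and 1.09 ± 0.116 for H2AK119ub.

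Recurrence in the lists was read gene by gene. A peak in 2 or more of 3 lists was present for 0 of 10 genes in Damage BMI1 (0.0137% of all protein-coding genes) and 0 of 10 in Damage H2AK119ub (0.00914%). At homeostasis it was present for 7 of 10 genes with BMI1, against 7.31% of all protein-coding genes, and for 6 of 10 with H2AK119ub, against 9.6%. All 3 lists held a peak for 6 of 10 genes with BMI1 (4.42% of all) and for 5 of 10 with H2AK119ub (2.91% of all). Length has to be read beside these counts, since the median length was 471 kb for the 10 genes and 17.2 kb for all. Among genes of like length to Robo1, 76.7% had a BMI1 peak in 2 or more Homeostasis lists and 85.6% an H2AK119ub peak. The corresponding shares were 80.9% and 88.3% for Dcc, 57.1% and 68.6% for Slit3, and 56.6% and 68.6% for Unc5d. They were 41.4% and 53.8% for Unc5c, 38.7% and 50.7% for Slit2, 22.9% and 30.2% for Ntn1, and 19.4% and 25.9% for Slit1. Over the 10 genes they ran from 3.30% (Robo4) to 91% (Robo2) for BMI1, and from 4.46% to 94% for H2AK119ub. For a peak in all 3 lists, no share among genes of like length was computed.

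The effect of treatment on these genes could not be separated from the length of the lists. Damage lists held 0 peaks in the 10 genes among 217 peaks, and Homeostasis lists 127 among 39615. The windows of the 10 genes cover 0.221% of the genome considered, so at the genome-wide density 0.475 peaks were expected in them over the 6 Damage lists. The highest expectation for a single Damage list was 0.150, in H2AK119ub replicate 2. A count of 0 is therefore close to what the short Damage lists would give for any genes of this total length. Every Damage list lay below every Homeostasis list for 6 of 10 genes with BMI1 (4.39% of all protein-coding genes) and 5 of 10 with H2AK119ub (2.9%). Those are the genes with a peak in all 3 Homeostasis lists, so with 0 Damage peaks the count adds nothing on treatment. The shares of all protein-coding genes beside it are not matched for length. The nearest Damage peak to any of the 10 genes was 1170 kb from Unc5c, and the nearest to Robo1 was 2460 kb away.

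The antibodies were compared at homeostasis by the number of peaks per 1000 peaks of the list. This scales for list length, but a single peak weighs more in a shorter list. A two-sided exact permutation test was run for each of 4202 protein-coding genes with a Homeostasis peak. With 3 lists against 3 it cannot give p under 0.1, and its smallest value after Benjamini-Hochberg adjustment over these genes was 1. Robo1 had 1.19 ± 0.474 BMI1 peaks per 1000 and 0.866 ± 0.175 H2AK119ub peaks per 1000 (SD, n = 3 each, difference 0.328, exact permutation p = 0.4). Dcc had 0.948 ± 0.137 and 0.851 ± 0.171 in the same order (difference 0.0965, exact permutation p = 0.6). The lists of the antibodies overlapped for both genes. Slit2 had the smallest p, with 0.193 ± 0.0565 BMI1 peaks per 1000 and 0.329 ± 0.149 H2AK119ub peaks per 1000 (difference -0.137, exact permutation p = 0.2). In the shortest list, H2AK119ub replicate 1, 1 Slit2 peak gave 0.5 per 1000, while 3 peaks in replicate 2 gave 0.222. Without H2AK119ub replicate 1 the Slit2 difference was -0.0515. Of the 8 genes with a peak, 0 had antibody groups that did not overlap, compared with 6.07% of the genes tested. A difference between the antibodies was not detectable at any of the 8 genes with this number of lists.

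The individual sites were then followed across lists. Overlapping peaks of the 6 Homeostasis lists merged into 48 sites in 8 of the 10 genes, of which Dcc held 13, Robo1 11, Robo2 8, Slit3 5, Slit2 4, Unc5c 3, Unc5d 3 and Slit1 1. In 126 of the 127 cases the peak was 101 bp wide. At sites shared between lists the median spread of peak centres was 11 bp, and 12 bp at sites in other protein-coding genes. Because sites are merged from overlapping peaks this narrow, the spread is small by construction. Peaks were found in 2 or more of the 6 lists at 30 of 48 sites (62.5%), against 48.8% of 6863 sites in other protein-coding genes. Of these 30 sites, 10 were in Robo1 and 8 in Dcc, the genes already known to hold many peaks. Elsewhere in the group 4 of 8 sites recurred in Robo2, 4 of 5 in Slit3 and 2 of 4 in Slit2. In Unc5c and Unc5d 1 of 3 recurred, and in Slit1 0 of 1. Sites found in 5 lists made up 14.6% of the sites of the 10 genes and 6.47% of those in other protein-coding genes. Sites in all 6 lists made up 6.25% and 6.88%, as the plot of recurrence shows. Of the 18 sites found in 1 list only, 13 came from H2AK119ub replicate 2, the longest list.

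**Figure D3:**
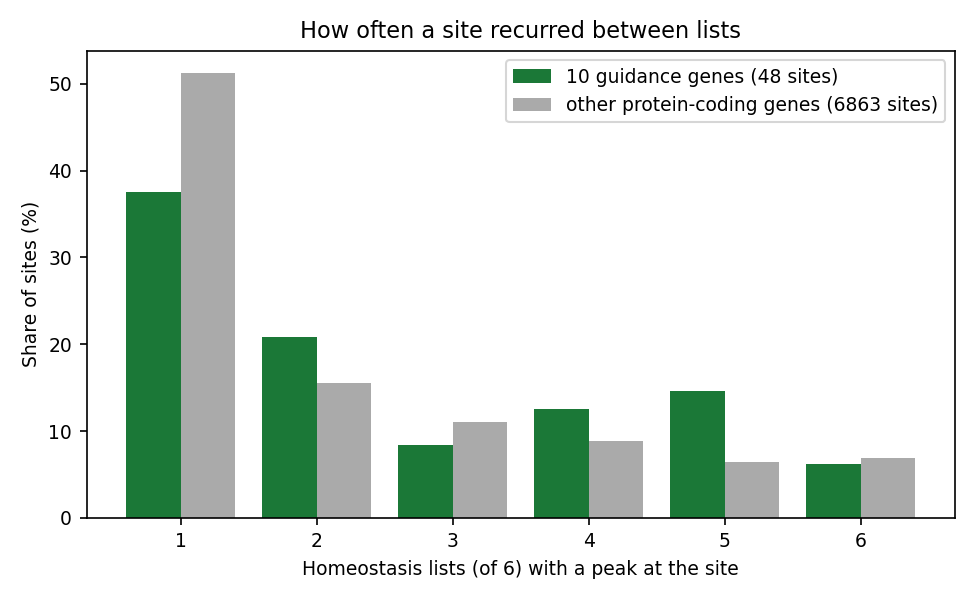
Share of sites (%) by the number of Homeostasis lists, from 1 to 6, that held a peak there, for the 48 sites of the 10 guidance genes (green) and the 6863 sites of other protein-coding genes (grey). Single-list sites make up 37.5% in the guidance genes and 51.2% in the others.

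The 3 sites present in all 6 Homeostasis lists were 1 in Slit3 and 2 in Dcc. The Slit3 site lay 236 kb into the gene (chromosome 11, 35357804 to 35357920). The Dcc sites lay 333 and 390 kb from the lower-coordinate end of the gene (chromosome 18, 71586156 to 71586267 and 71643640 to 71643754). Robo1 had no site in all 6 lists but 3 sites in 5 lists, at 195, 406 and 617 kb from its lower-coordinate end (chromosome 16, 72222930 to 72223053, 72433484 to 72433591 and 72644251 to 72644367). Of its sites, 10 of 11 recurred in 2 or more lists, 7 in 2 or more BMI1 lists and 7 in 2 or more H2AK119ub lists. In Robo2, 4 of 8 sites recurred, and in Dcc 8 of 13.

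A few sites sat side by side. In Robo1, Slit2, Robo2 and Dcc a pair of neighbouring sites was separated by 15, 25, 62 and 31 bp, and no list had a peak in both. Counted together, the Slit2 pair (chromosome 5, 48153518 to 48153629 and 48153655 to 48153755) was present in all 6 lists and the Robo1 pair in 5. Otherwise the sites were spread out, with a median gap of 62.9 kb in Robo1 and 64.4 kb in Dcc. No site overlapped another annotated gene, tRNA genes included. A single site lay outside a gene body, 4.95 kb from the lower-coordinate end of Dcc and so just inside the 5 kb limit. Just outside the limit, the nearest sites lay 8.92 kb from Dcc and 10.4 kb from Robo1, each in 1 list.

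BMI1 and H2AK119ub shared many of these sites. Peaks of both antibodies were found at 26 of 48 sites (54.2%), against 42.1% of sites in other protein-coding genes. Of these 26 sites, 8 were in Robo1 and 7 in Dcc, the genes already known to hold many peaks. Among the 48 sites, 6 had BMI1 peaks only and 16 H2AK119ub peaks only. With regions required in 2 or more lists of an antibody, 13 of 17 BMI1 regions (76.5%, exact 95% binomial interval 50.1 to 93.2%, counting error only) overlapped one of 20 H2AK119ub regions. Elsewhere in the genome 84.2% of 4449 BMI1 regions did. In the other direction, 13 of 20 H2AK119ub regions (65.0%) overlapped a BMI1 region, against 59.3% of 6307 elsewhere. These counts depended on single lists. BMI1 regions numbered 9 without Homeostasis BMI1 replicate 2 and 10 without replicate 3, and H2AK119ub regions 7 without H2AK119ub replicate 2 or replicate 3. Leaving out either of these H2AK119ub lists gave a BMI1 share of 35.3%, against 35.0% elsewhere without replicate 2 and 34.0% elsewhere without replicate 3. Robo1 had 8 sites with both antibodies, 2 with BMI1 only and 1 with H2AK119ub only, and Dcc had 7, 1 and 5. Both antibodies were found at 4 of 5 sites in Slit3, 4 of 8 in Robo2 and 1 of 4 in Slit2. In Unc5c and Unc5d it was 1 of 3 sites, and in Slit1 0 of 1.

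The surroundings of the genes differed. Robo1 had 6.15 ± 2.02 BMI1 peaks per Mb in its window, against 1.83 ± 0.577 in the 2 Mb before it and 1.33 ± 1.04 in the 2 Mb after it (SD, n = 3 lists). For H2AK119ub the densities were 5.83 ± 3.50 in Robo1, 3.0 ± 2.5 before and 1.83 ± 2.02 after. Each of the 6 lists was denser in Robo1 than on either side. The side after Robo1 includes part of Robo2, and the side before Robo2 all of Robo1. The 834 kb between Robo1 and Robo2 held 4 peaks of each antibody over 3 lists, 0.743 and 0.579 times expectation for BMI1 and H2AK119ub. Set against the 2 Mb on each side, Robo1 had 2.99 times the peaks expected over the 6 Homeostasis lists, Dcc 1.60 times, Slit2 1.57 times, Slit3 1.42 times and Robo2 0.436 times. The sides of Dcc differed, with 1.5 ± 0.5 BMI1 peaks per Mb before it, 4.33 ± 0.764 after it and 4.82 ± 2.09 within. Its H2AK119ub densities were 2.5 ± 2.18, 4.83 ± 1.76 and 5.72 ± 4.63 in the same order.

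**Figure D4:**
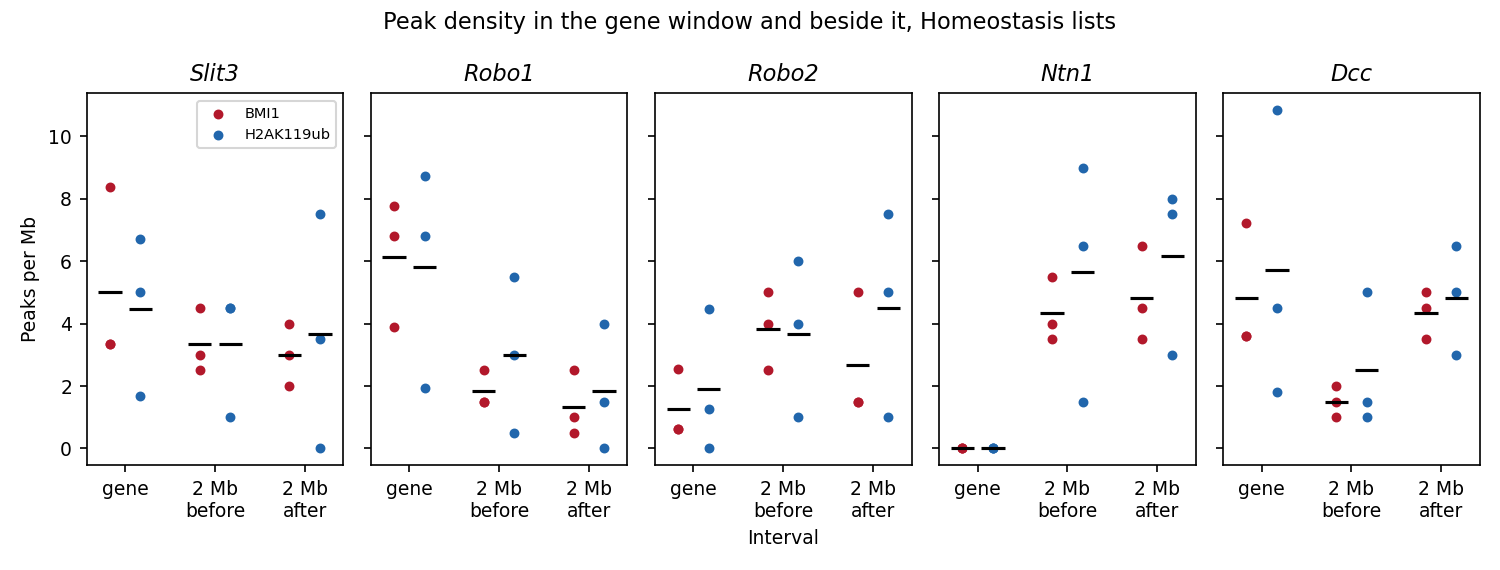
Peaks per Mb in the window of each of 5 genes and in the 2 Mb before and after it by coordinate, in the Homeostasis lists of BMI1 (red) and H2AK119ub (blue). Points are single lists and short black lines are means of 3 lists. Robo1 lies above both sides on average, Robo2 below both, and Ntn1 has no peak between sides averaging 4.33 to 6.17 peaks per Mb.

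The sites were also set against gene starts. Polycomb complexes of vertebrates are known to bind at promoters rich in CpG dinucleotides. RefSeq promoter windows on GRCm38.p6 matched 6 of the 10 genes, with 8 windows in all (Slit2, Slit3, Robo1, Robo4, Unc5c and 3 for Robo2). A Homeostasis peak centre lay within 5 kb of 0 of these 8 starts, against 5.25% of 32851 RefSeq starts. With a share this low, a count of 0 among 8 starts is uninformative. The nearest peaks were 18.8 kb from the Robo1 start and 30.7, 49.5 and 67.1 kb from those of Slit2, Slit3 and Unc5c. Over all RefSeq starts the median distance was 63.5 kb. The peak nearest the Slit3 start lay outside the gene's window, and the nearest site in Slit3 was 158 kb from that start. In Robo1 the listed start is internal to the annotated gene: 9 of 11 sites lay in the 636 kb before it and 2 in the 384 kb after it. Robo2 runs on the minus strand, and 7 of its 8 sites lay in the 50% of the gene nearest its 5′ end. The same count was 3 of 3 for Unc5c, 5 of 11 for Robo1, 2 of 5 for Slit3 and 1 of 4 for Slit2. These counts include sites found in 1 list only. Such sites were 4 of 8 in Robo2, 2 of 3 in Unc5c, 1 of 11 in Robo1, 1 of 5 in Slit3 and 2 of 4 in Slit2.

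The 250 bases before the starts of Slit3, Slit2 and Robo1 are shown because they differ in CpG content and none had a peak within 5 kb. The capitals mark each CG, searched as the letters CG, which read alike on both strands. The windows hold 35, 25 and 11 of them in that order, more than in 97.0%, 89.3% and 64.4% of the RefSeq windows, whose median is 6. At least 1 CG was present in 92.1% of those windows. They lie on the plus strand at chr11:35121206-35121455, chr5:47982905-47983154 and chr16:72662899-72663148.
Slit3: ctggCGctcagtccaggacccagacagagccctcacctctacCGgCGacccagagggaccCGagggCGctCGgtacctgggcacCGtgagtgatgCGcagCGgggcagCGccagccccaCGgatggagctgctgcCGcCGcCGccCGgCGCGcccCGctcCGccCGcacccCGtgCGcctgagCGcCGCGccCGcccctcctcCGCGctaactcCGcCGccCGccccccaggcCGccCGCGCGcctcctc
Slit2: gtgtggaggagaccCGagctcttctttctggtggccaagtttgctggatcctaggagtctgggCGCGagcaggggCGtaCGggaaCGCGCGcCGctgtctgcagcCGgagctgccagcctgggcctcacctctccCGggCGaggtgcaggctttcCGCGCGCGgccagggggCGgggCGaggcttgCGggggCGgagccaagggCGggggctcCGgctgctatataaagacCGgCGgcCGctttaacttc
Robo1: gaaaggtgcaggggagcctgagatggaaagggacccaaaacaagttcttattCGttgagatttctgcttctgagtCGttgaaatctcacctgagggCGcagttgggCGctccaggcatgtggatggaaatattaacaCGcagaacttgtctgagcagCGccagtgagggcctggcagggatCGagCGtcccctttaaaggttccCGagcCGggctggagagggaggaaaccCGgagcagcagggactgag

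Slit2 and Slit3 each contain a microRNA gene whose main product, miR-218-5p, is the same molecule. The microRNA is known to lower Robo1 so the ligand genes host a regulator of their own receptor. Mature sequences from RefSeq (GRCm38.p6) are shown with the seed, bases 2 to 8, in capitals. The 5p form is identical from both host genes, while the 3p forms differ in their seeds.
mmu-miR-218-5p: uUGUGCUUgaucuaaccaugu
mmu-miR-218-1-3p: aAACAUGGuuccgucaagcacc
mmu-miR-218-2-3p: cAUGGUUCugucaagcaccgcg

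Neither microRNA gene carried a peak. The nearest site to Mir218-2, within Slit3, was 15.7 kb away and present in 2 lists, the one at 480 kb into the gene (chromosome 11, 35601159 to 35601260). The nearest to Mir218-1, within Slit2, was 70.0 kb away and also present in 2 lists, both of H2AK119ub (chromosome 5, 48293941 to 48294042).

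Other genes of the pathway were read in the same way. Of 17 further ligands, receptors and co-receptors, 3 had a BMI1 peak and 5 an H2AK119ub peak in 2 or more Homeostasis lists, and 10 had no Homeostasis peak. Their median length was 53.4 kb. Over all protein-coding genes the recurrence shares were 7.31% and 9.6%, and the median length was 17.2 kb. A Homeostasis peak was present in 4202 of 21887 protein-coding genes. Summed over the 17 genes, peaks were 1.41 times the expected number for BMI1 and 1.46 times for H2AK119ub. The same ratio of sums for the 10 genes was 1.49 and 1.34. Protein-coding genes other than the 10 averaged 0.870 and 0.873 over lists. Dscam, a cell adhesion molecule that can act as a netrin receptor, had 2, 4 and 1 Homeostasis BMI1 peaks and 1, 5 and 3 Homeostasis H2AK119ub peaks. Its 16 peaks were 1.83 times expectation. Ntn4, encoding the laminin-binding netrin-4, Ntng1 and Ntng2, encoding membrane-anchored netrin-G proteins, had 6 peaks each, against 1.74, 5.90 and 0.895 expected. Flrt2, which encodes a transmembrane protein that binds Unc5 receptors, had 5. No gene of this list had a Damage peak.

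Of 28 intracellular effectors, 8 had a BMI1 peak and 8 an H2AK119ub peak in 2 or more Homeostasis lists. Over all protein-coding genes the shares were 7.31% and 9.6%. The effectors had a median length of 107 kb, and 16 had no Homeostasis peak. Their ratios of summed peaks were 1.29 and 0.977, and protein-coding genes other than the 10 averaged 0.870 and 0.873 over lists. Srgap3, a Slit-Robo GTPase-activating protein gene, had 10 peaks (4.06 expected), and its relative Srgap2 had 7 (3.67 expected). Cdh2, which encodes N-cadherin, had 9 (3.59 expected), and so did Ablim1, which encodes an actin-binding protein (4.21 expected). Dock1 had 7 (7.05 expected). Ablim1 also had 1 Damage peak, in BMI1 replicate 3, the only Damage peak in this list.

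The genes most like Robo1 in peak numbers were sought among the 215 genes of like length, by Euclidean distance over the 6 Homeostasis lists. They were Sgcz, Gpc6, Ppargc1a, Ntm and Lrrc4c, at distances of 2.65, 3.46, 3.61, 3.87 and 4.00 peaks. Gpc6, for example, had 5, 7 and 5 BMI1 peaks and 3, 11 and 8 H2AK119ub peaks. All 5 had 0 Damage peaks, as did Robo1 and most genes of like length. Of the 215, 3.72% had a Damage BMI1 peak and 2.33% a Damage H2AK119ub peak. The 6 lists share no read normalization, so likeness here includes the common effect of list length.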

How the data were processed

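Bowtie2 (no version), HOMER 4.8 and the build GRCm38 are named in the submitters' processing notes. How peaks were called is not given in the sources used here, and 2 Input libraries were not analysed here. The authors deposited 1 peak list per library. The deposited score is 1 for every peak and was not used. Peaks off the assembled chromosomes (143 of 39832) were left out of gene counts.

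Gene boundaries, promoters and microRNAs came from RefSeq tables of GRCm38.p6, without exons or genome sequence. All 10 genes and the 98 genes of 4 further lists matched by symbol. Expected peaks were the list's peaks on the chromosome times window length over the range spanned by peaks and genes. Sites were merged peaks (1 bp overlap). All list genes named were, per list, up to 6 with most Homeostasis peaks and a peak in 2 or more lists of an antibody. A gene this rule names among the effectors is not reported here. The genes, lists and rules were chosen with earlier results of these data known. The only test was the exact permutation test between antibodies, over all genes with a Homeostasis peak. Procedures were tested on simulated data. Python 3.11.15, numpy 2.4.6, pandas 2.3.3 and matplotlib 3.10.9 were used. Depth is unknown.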

Additional observations from a re-analysis of the deposited data

How the results depend on the processing

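The summed ratio to expectation depended on Robo1 and Dcc. Leaving both out, an alternative chosen after the data were seen, gave 0.903 for BMI1 and 0.963 for H2AK119ub. With the peak density of the 2 Mb on each side, the H2AK119ub ratio was 1.09. Regions required in all 3 lists numbered 9 for BMI1 and 7 for H2AK119ub, and 33.3% of the BMI1 ones overlapped an H2AK119ub one, against 53.0% of 2279 elsewhere. When each list was left out in turn, BMI1 regions numbered 9 to 16 (9 without replicate 2, 10 without replicate 3) and H2AK119ub regions 7 to 20 (7 without replicate 2 or 3). The overlap share ranged over 35.3 to 81.2%, and over 34.0 to 90.6% elsewhere. The genes whose antibody groups did not overlap numbered 0 to 2 of 8, against 7.66 to 20.1% of the 4202 genes tested: Robo1 without BMI1 replicate 1 (462 genes in all), Slit2 without BMI1 replicate 3 (501 genes), and Slit2 and Unc5d without H2AK119ub replicate 2 (352 genes). The uncalled Robo2 difference in peaks per 1000 (BMI1 minus H2AK119ub) ranged over -0.0667 to 0.193, with its sign changed without BMI1 replicate 2 (-0.0392) and without H2AK119ub replicate 1 (-0.0667). The cause was not tested. Same-numbered BMI1 and H2AK119ub lists share only a number (correlations of their deviations 0.0866, 0.245 and -0.0565). With the replicate block, 1 of 8 genes, Slit2, had differences of 1 sign in all 3 pairs, as did 7.83% of the genes tested (for Slit2 exact permutation p = 0.25, the smallest that 8 arrangements allow). Other flanks, the genome-wide density, merging, recurrent peaks only, removal of tRNA and 5S peaks and assignment by any overlap kept the ratio to expectation within 1 SD, and so did leaving out single lists (1.37 to 1.66 for BMI1, 1.28 to 1.52 for H2AK119ub). Depth is unknown, and list length differs between groups.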

Other observations

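Semaphorins, plexins and neuropilins form another guidance family. Of its 31 genes, 5 had a BMI1 peak and 8 an H2AK119ub peak in 2 or more Homeostasis lists, 16 had no Homeostasis peak, and 0 peaks fell in them in the Damage lists. Over all protein-coding genes the recurrence shares were 7.31% and 9.6%, and 4202 of 21887 had a Homeostasis peak. Peaks summed over the family were 1.20 times expectation for BMI1 and 1.14 times for H2AK119ub. Protein-coding genes other than the 10 guidance genes averaged 0.870 and 0.873 over lists. Plxna4, encoding a plexin receptor, had 3, 4 and 2 BMI1 peaks and 1, 6 and 2 H2AK119ub peaks at homeostasis, and Sema6d, encoding a transmembrane semaphorin, had 2, 3 and 3 BMI1 peaks and 2, 3 and 2 H2AK119ub peaks. The median length of the family was 40.5 kb. Sema4f (27.9 kb) had 8 Homeostasis peaks where 0.642 were expected, and Sema4a (25.2 kb) had 1 peak in each of the 6 Homeostasis lists where 0.547 were expected in all. Sema3d had 7 Homeostasis peaks (3.30 expected) and Sema3c 5 (2.53 expected). These 6 genes are those with most peaks in the family and do not stand for the rest.

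Of 22 ephrin and Eph receptor genes, 5 had a BMI1 peak and 5 an H2AK119ub peak in 2 or more Homeostasis lists, and 12 had no Homeostasis peak. Their median length was 27.8 kb. Over all protein-coding genes the recurrence shares were 7.31% and 9.6%, and 4202 of 21887 had a Homeostasis peak. Summed over the 22 genes, peaks were 0.862 times expectation for BMI1 and 0.770 times for H2AK119ub. Protein-coding genes other than the 10 guidance genes averaged 0.870 and 0.873 over lists. Ephb1 had 1 peak in each of 4 Damage lists and 7 peaks in the Homeostasis lists, 7.07 being expected there. Ephb2 had 6 Homeostasis peaks (2.67 expected), Efna5 had 5 (4.26 expected), Epha4 had 5 (2.30 expected), Epha7 had 5 (2.21 expected) and Epha3 had 3 (4.87 expected). The other Damage peaks of the 4 gene lists numbered 1, in Ablim1.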
